A study of Mus musculus with 16 samples.

Results

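The genes described here are 31 mouse genes of glycolysis, of glucose and lactate transport and of the entry of pyruvate into mitochondria. They are a fixed list of names that uses no threshold on these values, although earlier results of these data were known when it was drawn up, and run from the glucose transporters Slc2a1 and Slc2a3, through the enzymes from hexokinase to pyruvate kinase and the lactate dehydrogenases, to the monocarboxylate transporters and the pyruvate dehydrogenase complex with its kinases and 1 phosphatase. All 31 were present among the 55385 genes of each table and all 31 passed the filter on low counts, as did 17222 genes in all.

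RNA was sequenced from primary hippocampal cultures of newborn C57Bl/6N mice in 16 libraries, 4 in each of 4 groups. All cultures were infected with a recombinant adeno-associated virus that carries GFP under the chicken β-actin promoter and a short hairpin RNA under the U6 promoter, so the controls have a virus, a hairpin and GFP too. The hairpin was either Control-shRNA or a Dnmt3a1-shRNA directed at the long form of the DNA methyltransferase Dnmt3a, and each was studied in baseline or after 4 h of bicuculline, which blocks GABA-A receptors and makes the network fire in bursts. The paper names the sequenced Dnmt3a1 hairpin Dnmt3a1-shRNA2, and no other hairpin against Dnmt3a1 was sequenced. Effects of this hairpin on other targets and loss of Dnmt3a1 therefore cannot be told apart in these data. The U6 promoter is not specific to neurons, the cultures are mixed, and according to the methods they were kept before the experiment in a medium that contains glucose, pyruvate and insulin.

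Glycolysis splits glucose into pyruvate and yields ATP and NADH. Pyruvate is either reduced to lactate by lactate dehydrogenase and exported through monocarboxylate transporters, or oxidized by the pyruvate dehydrogenase complex, which pyruvate dehydrogenase kinases switch off and phosphatases switch on. In brain tissue neurons are known to take up glucose mainly through Slc2a3 (GLUT3) and lactate through Slc16a7 (MCT2), whereas Slc2a1 (GLUT1) and Slc16a1 (MCT1) are better known from astrocytes, oligodendrocytes and endothelium.

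The libraries held 28912697 to 29586355 counted read pairs, with TMM scaling factors from 0.871 to 1.12. Dnmt3a, the targeted gene, fell by 2.81 on the log2 scale with Dnmt3a1-shRNA in baseline and by 2.85 with bicuculline, and the groups with the 2 hairpins did not overlap. The 9 neuronal markers were all present, with mean levels from 66.5 to 1937 TPM, a level scaled for transcript length and library total. Among 10 astrocyte markers 1 was at 0 in some libraries (Gjb6). The same held for 2 of 10 markers of the oligodendrocyte lineage (Sox10 and Mag) and 2 of 10 of microglia (Cx3cr1 and P2ry12). Of 12 fibroblast and vessel markers it held for 1, the endothelial tight junction gene Cldn5. The highest marker of these 4 lists had a mean of 91.1, 101, 10.9 and 41.8 TPM in that order. These are bulk cultures, so a lower value can mean fewer cells of a type or less RNA per cell, and these cannot be told apart.

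In Control-shRNA cultures in baseline the enzymes from aldolase to pyruvate kinase were among the 10 most abundant of the 31 transcripts, and the regulators were scarce. Gapdh, which oxidizes glyceraldehyde 3-phosphate, stood first at 4025 ± 64.3 TPM (SD, n = 4), followed by Aldoa, the main brain aldolase besides Aldoc, at 1797 ± 99.1 TPM. The pyruvate kinase Pkm (1134 ± 49.8 TPM), the isomerase Gpi1 (1014 ± 59.3 TPM) and the enolase Eno1 (994 ± 50.8 TPM) came next, and their ranges over libraries overlapped from each gene to the next. Together the 8 genes from aldolase to pyruvate kinase gave 10262 ± 287 TPM, which was 1.03% of all TPM, out of 13740 ± 431 TPM for the 31 genes.

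Of the steps before aldolase, all but Gpi1 had lower levels. Hk1, the hexokinase of most brain cells, was at 246 ± 9.79 TPM, and the 3 phosphofructokinase genes stood at 193 ± 12.9 TPM for Pfkp, 169 ± 8.29 TPM for Pfkm and 80.4 ± 4.13 TPM for Pfkl. Slc2a3 was at 114 ± 3.71 TPM and Slc2a1 at 18.3 ± 2.26 TPM. The 3 lowest genes were Slc16a3 (MCT4, a lactate exporter of highly glycolytic cells) at 2.82 ± 0.471 TPM, the inducible hexokinase Hk2 at 2.67 ± 1.13 TPM and the pyruvate dehydrogenase kinase Pdk4 at 0.974 ± 0.437 TPM. In this order 15 of the 30 neighbouring pairs overlapped in their ranges over the 4 libraries, so that, for instance, Slc16a7, Pdk3 and Slc16a1 could not be ranked against each other.

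**Figure D1:**
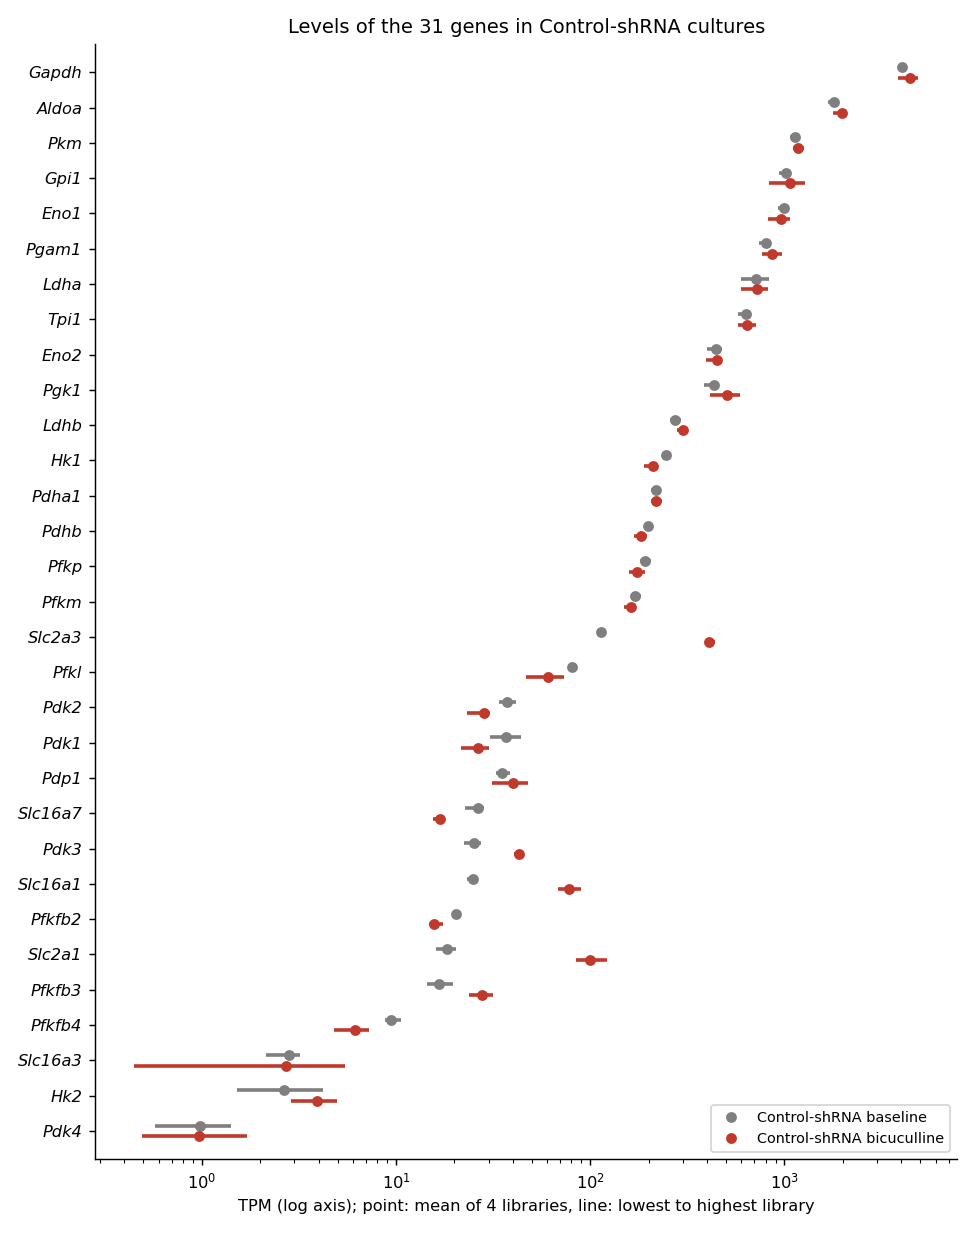
Level of each of the 31 genes in TPM (log axis) in the 4 Control-shRNA libraries in baseline (grey) and the 4 with bicuculline (red), where points are means, lines run from the lowest to the highest library, and genes are ordered by their baseline level. Slc2a3, Slc2a1 and Slc16a1 move furthest to the right with bicuculline, while the abundant enzymes such as Gapdh (4025 TPM in baseline) stay close to their baseline place.

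Bicuculline for 4 h raised the transporters of glucose and 1 transporter of lactate several-fold, and a few regulatory enzymes by less. Most of the enzymes of the pathway rose by a small factor that depended on how libraries were scaled. The values compared below are CPM, counts scaled to the library total and by TMM, and the adjusted p-values are those of edgeR's quasi-likelihood test after Benjamini-Hochberg adjustment over all 17222 genes. A gene is said to have risen or fallen where its adjusted p was under 0.05, and it was called where the absolute log2 fold change was also over 0.5. In Control-shRNA cultures 8 of the 31 genes were called, which is 25.8%, where 21.9% of all genes tested were called. Of these, 6 were higher (19.4%, against 10.8% of all genes), namely Slc2a1, Slc2a3, Hk2, Pfkfb3, Slc16a1 and Pdk3, and 2 were lower (6.45%, against 11.1%), Pfkfb4 and Slc16a7. On the adjusted p alone 18 genes rose (58.1%, against 19.5% of all genes) and 3 fell (9.68%, against 21.9%), in all 67.7% against 41.4%, and the median log2 fold change of the 31 was 0.23, beside 0.01 for all genes tested. With the replicate number as a block 22 rose and 5 fell, and the block also raised the number of genes called among all 17222, from 3765 to 3986. The libraries of the 2 conditions did not overlap for 17 of the 31 genes (54.8%, against 39.7% of all genes).

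The same comparison in Dnmt3a1-shRNA cultures called 9 genes (29.03%, against 25.8% of all genes tested), 7 higher (22.6%, against 12.6%) and 2 lower (6.45%, against 13.2%). All 8 genes called in Control-shRNA were among them, 6 higher and 2 lower, and the phosphoglycerate kinase Pgk1 was added. On the adjusted p alone 17 rose (54.8%, against 20.8% of all genes) and 3 fell (9.68%, against 25.2%), in all 64.5% against 46.0%, and the median was 0.27, beside -0.01 for all genes. The libraries did not overlap for 18 of the 31 (58.1%, against 40.4%). The estimates had the same sign under both hairpins for all 31 genes. The share of all tested genes for which this held was not computed, so the count is not read as a trait of the 31.

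Promoter windows are shown for the 6 genes with a window that were called higher under either hairpin (Pgk1 in Dnmt3a1-shRNA only), since these transcripts rose. That of Ldha, which was not called, is added as the 1 gene with a whole cAMP response element. The windows are RefSeq's on GRCm38.p6, from 250 bases before to 50 bases after each annotated start, and 28 of the 31 genes have at least 1 (Slc2a3, Slc16a7 and Pdp1 were not matched). The lines below give 30 bases around 1 match each, read 5′ to 3′ on the strand of the gene, with the match in capitals. The first 6 hold ACGTG, the core of the hypoxia response element, or CACGT, which is the same motif on the other strand, and the last holds the cAMP response element TGACGTCA. In the Hk2 and Pfkfb3 lines the match overlaps TGACG, a shorter form of the cAMP response element, or its other strand CGTCA. In the Slc16a1 line it lies within the E-box CACGTG.
Slc2a1, chr4:119108697-119108726, plus strand: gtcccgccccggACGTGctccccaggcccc
Hk2, chr6:82774489-82774518, minus strand: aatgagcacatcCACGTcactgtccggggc
Pfkfb3, chr2:11553972-11554001, minus strand: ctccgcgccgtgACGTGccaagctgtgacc
Slc16a1, chr3:104638453-104638482, plus strand: cggcgccgggtcACGTGgcgggaagggggg
Pdk3, chrX:93832186-93832215, minus strand: cgcgcgccgcgtACGTGcggcggcagatcc
Pgk1, chrX:106186938-106186967, plus strand: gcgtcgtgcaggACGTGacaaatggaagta
Ldha, chr7:46845781-46845810, plus strand: ggctcccactcTGACGTCAgcgcggagctt

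ACGTG, searched on both strands, was found for 17 of the 28 genes (60.7%), for 28.1% of the 12126 tested genes that have a window and for 21.8% of all 27025 genes with a window. It was present for all 6 of the genes called higher that have a window and for 11 of the other 22. Some genes have several windows, and by window the shares were 48.8% of 43 and 24.2% of 15501. The E-box CACGTG contains ACGTG, so each of its matches is counted in both, and it was found for 6 of the 28 genes (21.4%), against 11.1% of the tested genes. GGGCGG, the GC box, was present for 20 of the 28 (71.4%) and for 65.7% of the tested genes. It had the same share as ACGTG among the genes called higher, 6 of 6, and was found for 14 of the other 22.

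The whole cAMP response element was found for Ldha alone (3.57%, against 3.42% of the tested genes), and its shorter form TGACG for 10 genes (35.7%, against 33.7%). The AP-1 motif TGANTCA was found for Aldoa alone (3.57%, against 6.30%). GCGTG, the second form of the hypoxia core, was found for 19 genes (67.9%, against 53.9%). These are letter matches within 300 bases and say nothing of binding.

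Both glucose transporters rose several-fold. Slc2a1 had 27.1, 21.5, 24.3 and 20.3 CPM in the 4 Control-shRNA libraries in baseline and 132, 150, 166 and 130 CPM with bicuculline. In the Dnmt3a1-shRNA libraries it had 18.0, 26.9, 23.9 and 23.2 CPM in baseline and 93.7, 112, 114 and 97.2 CPM with bicuculline. Every bicuculline library lay far above every baseline library, and the 4 Dnmt3a1-shRNA libraries with bicuculline lay below the 4 Control-shRNA ones. The rise was 6.21-fold in Control-shRNA (log2 fold change 2.63 ± 0.12, SE; edgeR adjusted p = 2.4e-11) and 4.52-fold in Dnmt3a1-shRNA (2.18 ± 0.12; edgeR adjusted p = 1.7e-10).

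Slc2a3, the neuronal glucose transporter, was the more abundant of the pair in every group. It had 205, 178, 180 and 199 CPM in Control-shRNA in baseline and 852, 802, 853 and 788 CPM with bicuculline. With Dnmt3a1-shRNA the values were 195, 180, 197 and 191 CPM in baseline and 923, 914, 850 and 877 CPM with bicuculline. The baseline libraries of both hairpins lay within the same range, and none overlapped a bicuculline library. The log2 fold changes were 2.11 ± 0.06 (4.32-fold; edgeR adjusted p = 1.2e-13) and 2.22 ± 0.06 (4.67-fold; edgeR adjusted p = 5.5e-14). In TPM the 2 transporters together went from 133 ± 5.05 to 507 ± 40.1 in Control-shRNA and from 121 ± 13.2 to 475 ± 30.2 in Dnmt3a1-shRNA.

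At the entry of the pathway Hk1, the main hexokinase, did not pass edgeR's test, while the scarce Hk2 did. Hk1 was at 444 ± 21.9 CPM in baseline and 437 ± 13.7 CPM with bicuculline in Control-shRNA (log2 fold change -0.03 ± 0.05; edgeR adjusted p = 0.74), and its difference in Dnmt3a1-shRNA was -0.11 ± 0.05 (edgeR adjusted p = 0.10). In TPM, which is not TMM-scaled, Hk1 was lower with bicuculline without overlap. It ranged from 233 to 256 TPM in baseline and from 189 to 225 TPM with bicuculline in Control-shRNA. The ranges in Dnmt3a1-shRNA were 216 to 253 and 181 to 209 TPM. Hk2, which in other tissues is induced by insulin and hypoxia, had 11.3, 3.86, 6.11 and 6.13 CPM in Control-shRNA in baseline and 9.19, 7.78, 13.9 and 14.3 CPM with bicuculline. The first baseline library was higher than 2 of the bicuculline libraries, so these groups overlapped.

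In Dnmt3a1-shRNA the Hk2 values were 4.5, 3.30, 4.29 and 6.33 CPM in baseline and 14.6, 10.5, 11.5 and 12.6 CPM with bicuculline, without overlap. The log2 fold changes were 0.73 ± 0.27 in Control-shRNA (edgeR adjusted p = 0.037) and 1.42 ± 0.28 in Dnmt3a1-shRNA (edgeR adjusted p = 0.00037). The Control-shRNA call rests on single libraries. It was lost without baseline replicate 2 (log2 fold change 0.53), 3 (0.67) or 4 (0.68) or bicuculline replicate 3 (0.61) or 4 (0.58), with adjusted p between 0.088 and 0.13, and without baseline replicate 1 the estimate was 1.07 (adjusted p = 0.0020). Gpi1, the isomerase after hexokinase, rose by 0.25 ± 0.07 and 0.28 ± 0.07 on the log2 scale (edgeR adjusted p = 0.011 and 0.0047).

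Of the 3 phosphofructokinases, which catalyse the committed step, 1 passed the test. Pfkm, the muscle form, rose by 0.14 ± 0.04 under either hairpin (edgeR adjusted p = 0.018 and 0.016), and this direction depended on the scaling, as given with the counts further on. Pfkl and Pfkp gave estimates from -0.15 to 0.13 with edgeR adjusted p from 0.17 to 0.48.

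The PFKFB enzymes make and degrade fructose 2,6-bisphosphate, the allosteric activator of phosphofructokinase, and their genes changed in opposite directions. Pfkfb3, whose product favours synthesis, went from 33.8 ± 7.95 to 65.0 ± 8.12 CPM in Control-shRNA and from 36.1 ± 6.90 to 66.6 ± 2.57 CPM in Dnmt3a1-shRNA. Its log2 fold changes were 0.94 ± 0.15 and 0.88 ± 0.15 (edgeR adjusted p = 5.3e-05 and 8.0e-05), and the groups did not overlap. Pfkfb4 went from 11.7 ± 1.26 to 8.18 ± 0.159 CPM and from 12.5 ± 0.935 to 7.22 ± 1.17 CPM, a fall by 0.52 ± 0.11 and by 0.78 ± 0.11 (edgeR adjusted p = 0.00071 and 9.6e-06).

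The Control-shRNA value of Pfkfb4 was close to the fold threshold, and without baseline replicate 1 or 2 it was -0.46 or -0.49 and no longer called. Pfkfb2, the heart-type gene, fell by 0.18 ± 0.07 and 0.30 ± 0.07 (edgeR adjusted p = 0.046 and 0.0018). In TPM the sum of the 3 PFKFB genes was 46.5 ± 1.78 in baseline and 49.7 ± 5.79 with bicuculline in Control-shRNA, with overlapping ranges. TPM is not TMM-scaled, and on log2(TPM + 1) the median log2 fold change of all tested genes was -0.14 in Control-shRNA. The CPM above are on another scale, on which the sum can differ.

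From aldolase to pyruvate kinase all 8 genes had positive estimates under both hairpins, and 7 of the 8 passed the adjusted p in each. Aldoa rose from 1129 ± 109 to 1416 ± 40.1 CPM in Control-shRNA (log2 fold change 0.33 ± 0.06; edgeR adjusted p = 0.00050). Gapdh rose from 2309 ± 129 to 2934 ± 143 CPM (0.35 ± 0.06; edgeR adjusted p = 1.0e-04). Pgk1, which makes the first ATP of the pathway, rose from 342 ± 35.8 to 455 ± 62.2 CPM (0.41 ± 0.10; edgeR adjusted p = 0.0020). All 3 rises were below the fold threshold.

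In Dnmt3a1-shRNA the rises were 0.38 ± 0.06 for Aldoa, 0.37 ± 0.06 for Gapdh and 0.53 ± 0.10 for Pgk1, and only Pgk1 was called. Without Dnmt3a1-shRNA baseline replicate 2, or without bicuculline replicate 4, Pgk1 stood at 0.48 and was not called. Pgam1, the phosphoglycerate mutase, rose by 0.30 ± 0.07 and 0.36 ± 0.07, Pkm by 0.26 ± 0.07 and 0.27 ± 0.07, and Tpi1, the triosephosphate isomerase, by 0.23 ± 0.08 and 0.28 ± 0.08. The neuronal enolase Eno2 rose by 0.21 ± 0.06 and 0.17 ± 0.06, and the general enolase Eno1 did not pass the test in either (0.16 ± 0.08 and 0.19 ± 0.08; edgeR adjusted p = 0.13 and 0.055).

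Some of the small changes on the way to pyruvate also rested on single libraries. Eno2 in Dnmt3a1-shRNA passed in 7 of the 16 fits that left out 1 library (edgeR adjusted p up to 0.16) and not without Dnmt3a1-shRNA baseline replicate 1 or 4, Dnmt3a1-shRNA bicuculline replicate 2, 3 or 4, Control-shRNA baseline replicate 1 or 4, or Control-shRNA bicuculline replicate 3 or 4. Pfkfb2 in Control-shRNA passed in 8 of 16 (up to 0.14) and not without Control-shRNA baseline replicate 1, 2 or 4, Control-shRNA bicuculline replicate 2, 3 or 4, or Dnmt3a1-shRNA baseline replicate 1 or 4. In Control-shRNA, Tpi1 did not pass without baseline replicate 2 or 3 or bicuculline replicate 3 or 4 (up to 0.092), and Gpi1 not without bicuculline replicate 3 (0.055). Pfkm did not pass in Control-shRNA without baseline replicate 2 or 4 or bicuculline replicate 4 (up to 0.061), and in Dnmt3a1-shRNA without baseline replicate 4 or bicuculline replicate 2 (up to 0.055).

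Whether these small rises passed the test depended on how libraries were scaled. With library sizes in place of TMM the median log2 fold change of all tested genes moved to -0.15 in Control-shRNA and -0.16 in Dnmt3a1-shRNA. The members passing the adjusted p were then 9 higher and 7 lower in Control-shRNA and 11 higher and 6 lower in Dnmt3a1-shRNA, in place of 18 and 3 and of 17 and 3. Gapdh was then at 0.19, Pgk1 at 0.26, Eno2 at 0.05 and Pfkm at -0.019 in Control-shRNA. On the deposited TPM, tested with limma on log2(TPM + 1), 5 rose and 7 fell in Control-shRNA and 7 rose and 5 fell in Dnmt3a1-shRNA. The genes that rose in Control-shRNA were Slc2a1, Slc2a3, Pfkfb3, Slc16a1 and Pdk3, and Hk2 and Pgk1 were added in Dnmt3a1-shRNA. Gpi1, Ldhb and Pdha1 thus did not rise under either hairpin on the TPM. Of the 8 genes from aldolase to pyruvate kinase, 3 rose in Control-shRNA (Aldoa, Gapdh and Pgk1) and 4 in Dnmt3a1-shRNA (the same and Pgam1) with edgeR on library sizes, and on the TPM 0 rose in Control-shRNA and 1, Pgk1, in Dnmt3a1-shRNA. The calls of Slc2a1, Slc2a3, Pfkfb3, Slc16a1, Pdk3, Pfkfb4 and Slc16a7 held under these scalings in both hairpins. Hk2 lost its call in Control-shRNA (0.58; edgeR adjusted p = 0.079), and Pgk1 lost its call in Dnmt3a1-shRNA, at 0.38 with library sizes and 0.33 on the TPM.

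**Figure D2:**
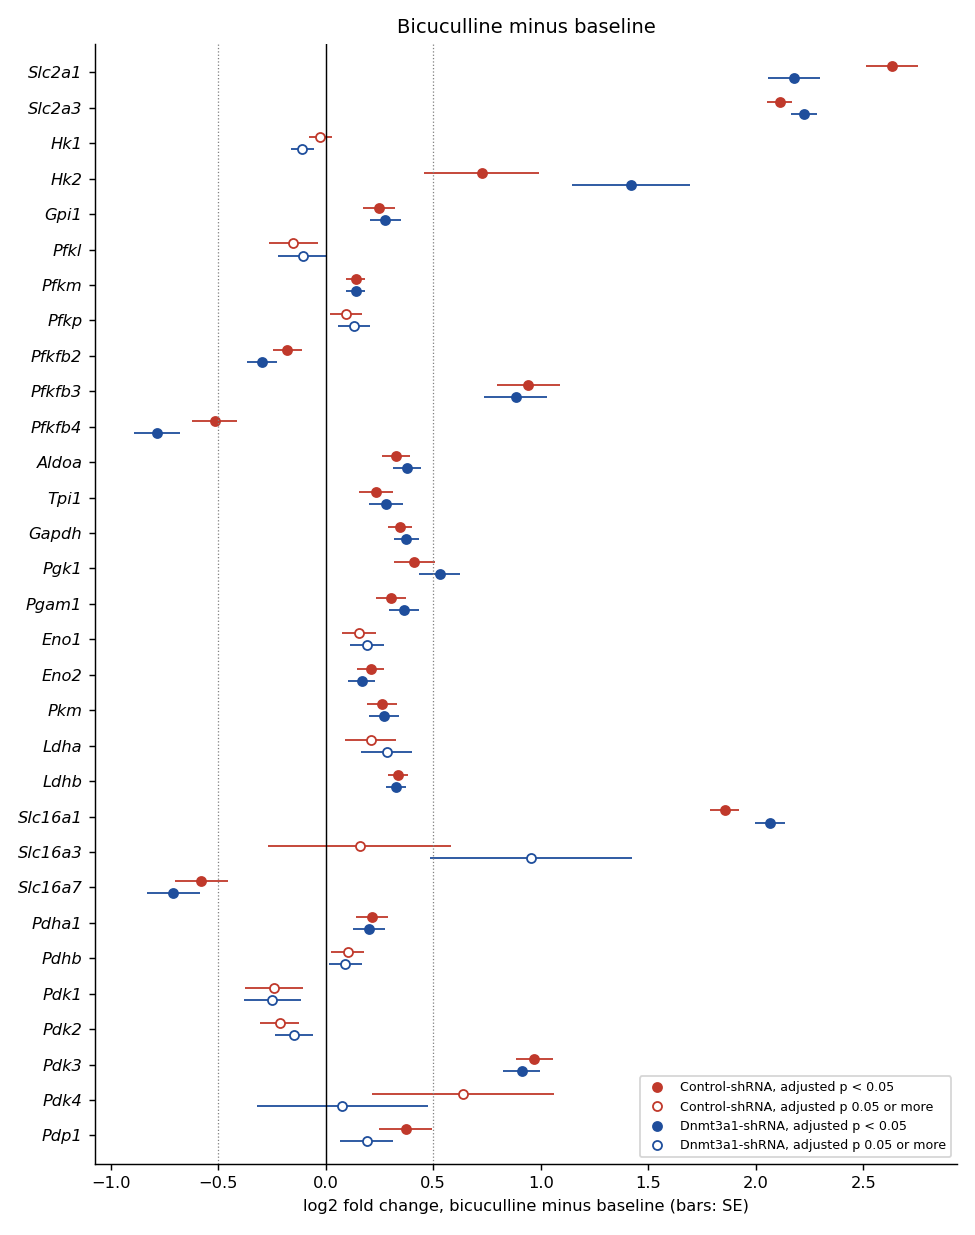
Log2 fold change of each of the 31 genes between bicuculline and baseline in Control-shRNA (red) and Dnmt3a1-shRNA (blue), with the standard error as bars, filled points for an edgeR adjusted p under 0.05 and dotted lines at -0.5 and 0.5. Slc2a1, Slc2a3 and Slc16a1 stand apart near or above 2, the enzymes from Aldoa to Ldhb cluster between 0 and 0.53, and Pfkfb4 and Slc16a7 lie beyond -0.5.

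On the lactate side Slc16a1 rose, Slc16a7 fell and, of the dehydrogenases, Ldhb rose by less than the fold threshold. Slc16a1 (MCT1) had 50.4, 48.8, 48.1 and 54.7 CPM in Control-shRNA in baseline and 172, 179, 199 and 180 CPM with bicuculline. In Dnmt3a1-shRNA it had 37.5, 45.5, 44.0 and 43.0 CPM in baseline and 175, 187, 179 and 171 CPM with bicuculline. The 4 Dnmt3a1-shRNA libraries in baseline lay below the 4 Control-shRNA ones, and with bicuculline the hairpins overlapped. The log2 fold changes were 1.86 ± 0.07 (3.62-fold; edgeR adjusted p = 1.4e-12) and 2.07 ± 0.07 (4.19-fold; edgeR adjusted p = 3.9e-13).

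Slc16a7 (MCT2), the neuronal lactate transporter, moved the other way. It went from 94.0 ± 11.9 to 62.9 ± 4.20 CPM in Control-shRNA and from 97.2 ± 17.3 to 59.4 ± 8.0 CPM in Dnmt3a1-shRNA, without overlap in either. It fell by 0.58 ± 0.12 and 0.71 ± 0.12 on the log2 scale (edgeR adjusted p = 0.0010 and 0.00013). Slc16a3 was too scarce for a firm value, with 19 to 147 counts per library, and its differences were 0.16 ± 0.43 and 0.95 ± 0.47 (edgeR adjusted p = 0.81 and 0.11). With the replicate number as a block it was called in Dnmt3a1-shRNA (0.97 ± 0.34; edgeR adjusted p = 0.022), as it was in a fit of the 2 groups alone (0.97 ± 0.32; edgeR adjusted p = 0.030).

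Ldhb, the dehydrogenase subunit that favours lactate oxidation, rose from 143 ± 4.93 to 181 ± 2.73 CPM in Control-shRNA and from 153 ± 6.22 to 192 ± 3.25 CPM in Dnmt3a1-shRNA, by 0.34 ± 0.05 and 0.33 ± 0.05 on the log2 scale (edgeR adjusted p = 1.3e-05 and 1.4e-05). Its replicates were tight in CPM, and the groups did not overlap there. In TPM, which is not TMM-scaled, they overlapped, at 257 to 295 in baseline and 279 to 317 with bicuculline in Control-shRNA. The TPM ranges in Dnmt3a1-shRNA were 255 to 294 and 272 to 320. With limma on log2(TPM + 1) Ldhb did not pass under either hairpin. Ldha, which favours lactate formation, varied more (481 ± 87.5 to 556 ± 72.0 CPM in Control-shRNA) and its differences of 0.21 ± 0.12 and 0.28 ± 0.12 did not pass (edgeR adjusted p = 0.18 and 0.061).

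Of the kinases that switch off pyruvate dehydrogenase, Pdk3 was the 1 that rose. It went from 23.3 ± 2.21 to 45.7 ± 2.38 CPM in Control-shRNA and from 23.1 ± 2.35 to 43.5 ± 3.80 CPM in Dnmt3a1-shRNA, without overlap (log2 fold change 0.97 ± 0.09 and 0.91 ± 0.09; edgeR adjusted p = 8.9e-08 and 1.5e-07). Pdk1 and Pdk2 had negative estimates from -0.25 to -0.15 with edgeR adjusted p from 0.064 to 0.20. Pdk4 had 12.5 to 59.2 counts per library and gave 0.64 ± 0.42 and 0.08 ± 0.40 (edgeR adjusted p = 0.25 and 0.90). With the replicate number as a block, Pdk4 was called in Control-shRNA (0.62 ± 0.21; edgeR adjusted p = 0.022).

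The catalytic subunit Pdha1 rose by 0.21 ± 0.08 and 0.20 ± 0.08 (edgeR adjusted p = 0.029 and 0.037), and Pdhb gave 0.10 ± 0.08 and 0.09 ± 0.08 (edgeR adjusted p = 0.32 and 0.36). Pdp1, a phosphatase that activates the complex, rose in Control-shRNA by 0.37 ± 0.12 (edgeR adjusted p = 0.024) and had 0.19 ± 0.12 in Dnmt3a1-shRNA (edgeR adjusted p = 0.23). In Control-shRNA it did not pass without baseline replicate 2 or 3 or bicuculline replicate 4, and without bicuculline replicate 1 it was at 0.24 (edgeR adjusted p = 0.11). Pdha1 passed in 11 of the 16 fits without 1 library under each hairpin (edgeR adjusted p up to 0.096 and 0.12). It did not pass in Control-shRNA without baseline replicate 1, 2 or 3 or bicuculline replicate 1 or 4, nor in Dnmt3a1-shRNA without baseline replicate 2 or 3 or bicuculline replicate 1, 2 or 4.

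**Figure D3:**
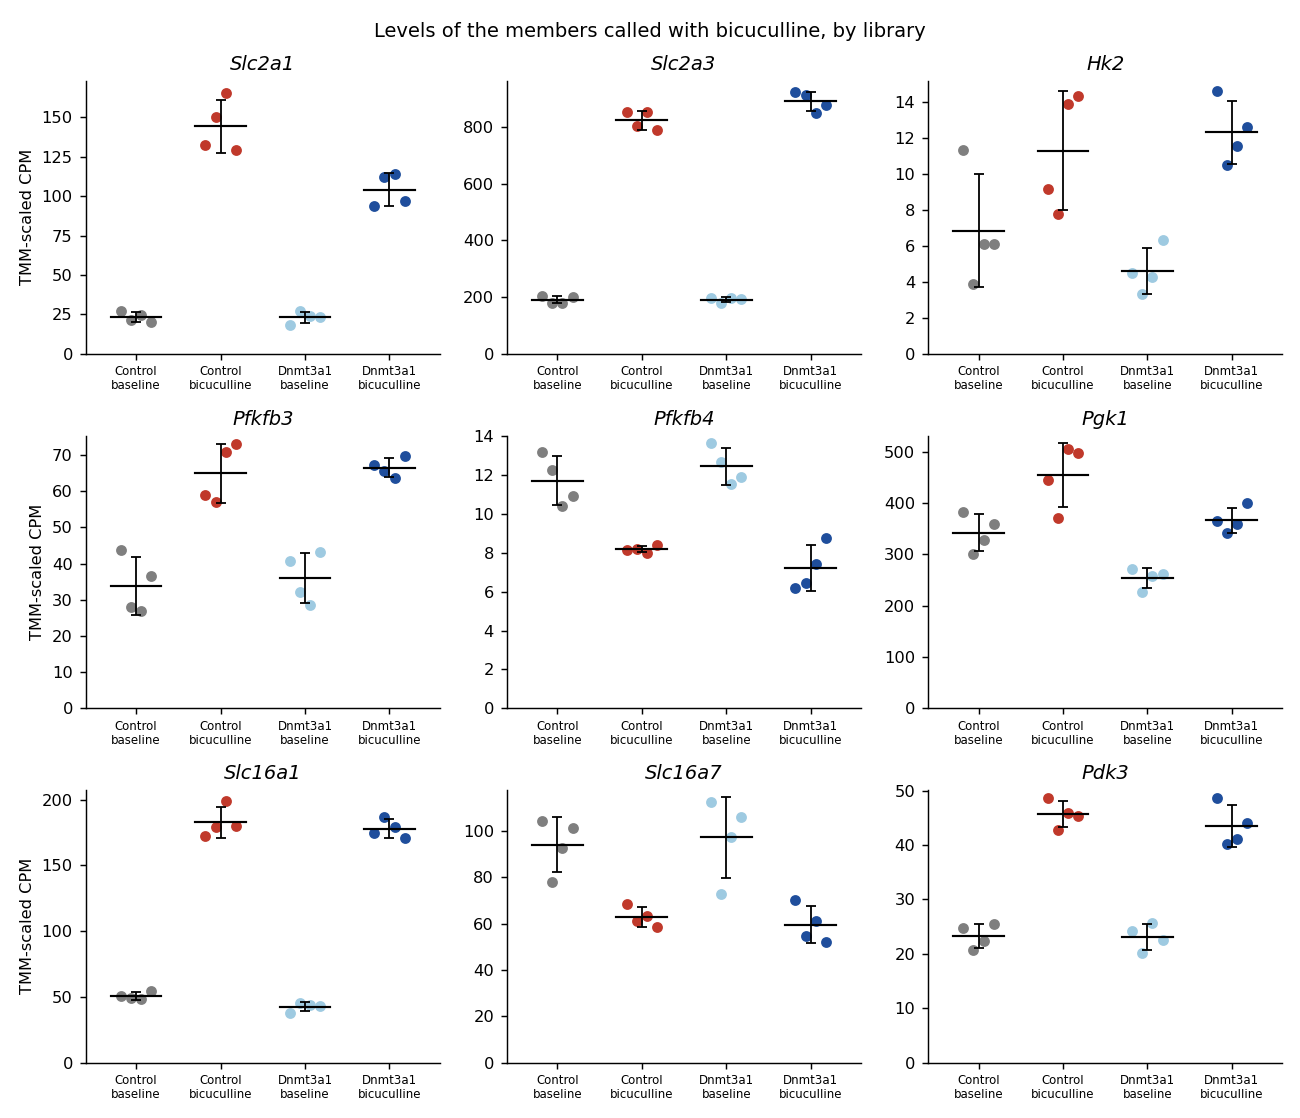
Level in CPM of the 9 genes called with bicuculline under either hairpin, with 1 point per library, a line for the mean and bars for the SD of the 4 libraries of each group, and axes that start at 0. The bicuculline and baseline points separate under both hairpins for all genes shown except Hk2 and Pgk1 in Control-shRNA.

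Within families of isozymes, the makeup moved with bicuculline in some and stayed close in others. The shares below are of the summed TPM of the listed family members per library, and they are given without a test. Among Slc16a1, Slc16a3 and Slc16a7, the share of Slc16a1 went from 46.0% ± 3.17 to 79.8% ± 0.943 in Control-shRNA and from 41.0% ± 6.90 to 80.0% ± 1.76 in Dnmt3a1-shRNA. That of Slc16a7 went from 48.8% ± 2.58 to 17.6% ± 2.58 and from 56.6% ± 7.15 to 17.9% ± 1.34. The most abundant transporter of the family was thus Slc16a1 in all 8 libraries with bicuculline. In baseline it already stood above Slc16a7 in Control-shRNA replicate 2 (49.4% and 46.2%) and replicate 4 (47.8% and 47.1%). The same held for Dnmt3a1-shRNA baseline replicate 2 (51.2% and 46.3%).

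Pfkfb3 likewise passed Pfkfb2, from 35.7% ± 3.97 to 55.8% ± 1.82 of the PFKFB genes in Control-shRNA and from 35.0% ± 3.78 to 56.8% ± 1.84 in Dnmt3a1-shRNA. Pdk3 went from 25.1% ± 0.999 to 43.6% ± 1.98 and from 26.3% ± 1.49 to 43.1% ± 1.99 of the kinases. By the means of the groups the leading gene of both families was thus another one with bicuculline, while in Control-shRNA baseline replicate 1 Pfkfb3 (40.6%) already stood just above Pfkfb2 (40.1%). Of the glucose transporter pair Slc2a1 made up 13.8% ± 1.36 of the pair in baseline and 19.7% ± 1.91 with bicuculline in Control-shRNA, and 14.0% ± 2.11 and 14.2% ± 1.19 in Dnmt3a1-shRNA.

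The shares of the dehydrogenases and enolases overlapped between the conditions. Ldha made up 72.2% ± 3.16 and 70.5% ± 2.51 of the dehydrogenases in Control-shRNA, and Eno1 69.2% ± 2.81 and 68.3% ± 1.97 of the enolases. Hk1 made up 97.7% to 99.4% of the hexokinases in the 16 libraries.

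**Figure D4:**
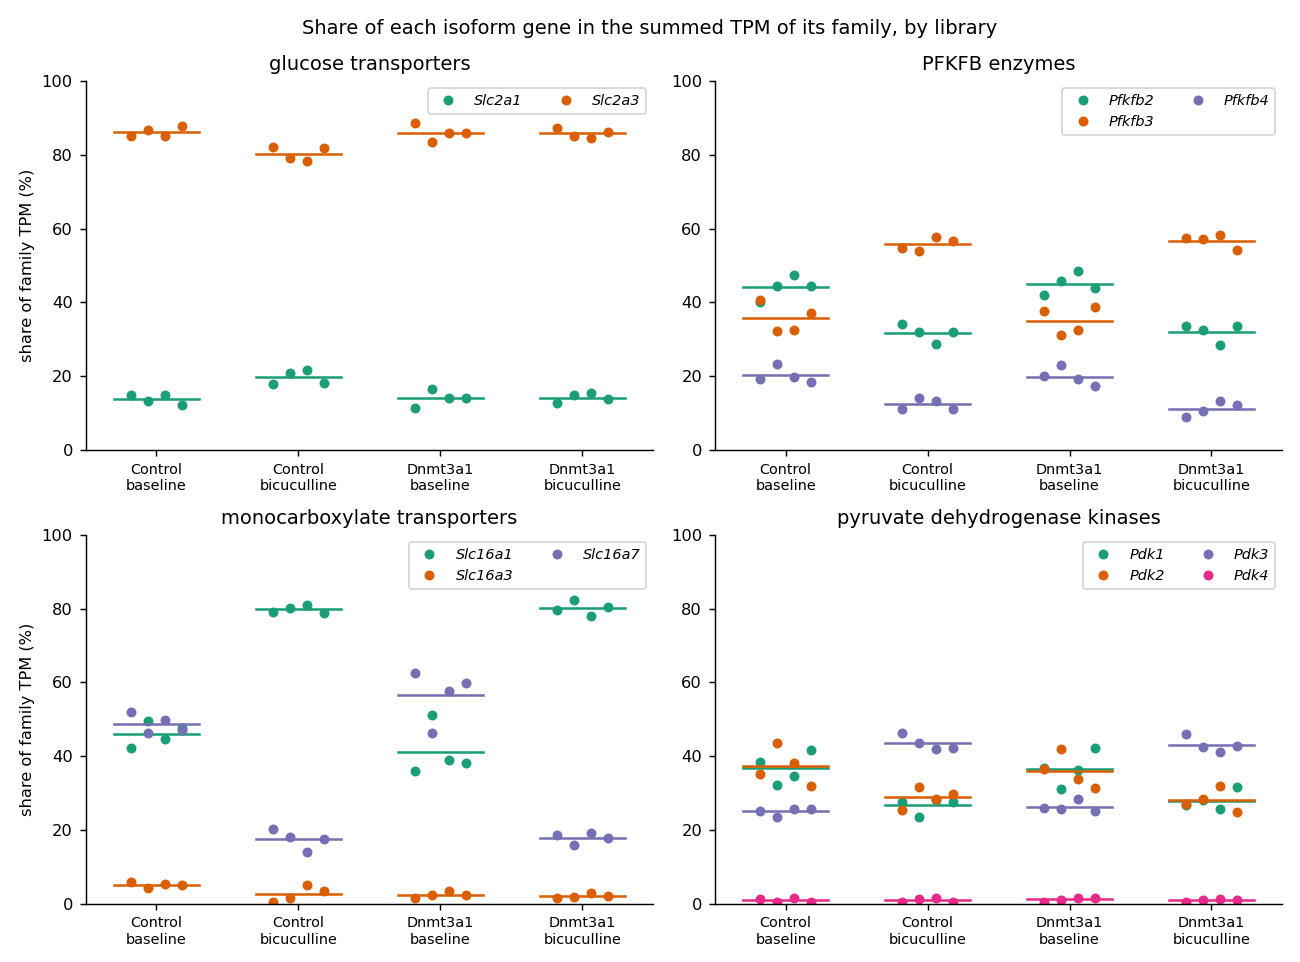
Share of each gene in the summed TPM of its family (percent, axis from 0 to 100), with 1 point per library and a line for the mean of the 4 libraries of each group, for glucose transporters, PFKFB enzymes, monocarboxylate transporters and pyruvate dehydrogenase kinases. With bicuculline Slc16a1 moves to about 80.0% of its family and Pfkfb3 and Pdk3 become the largest share of theirs, and the mean share of Slc2a1 goes from 13.8% to 19.7% in Control-shRNA and from 14.0% to 14.2% in Dnmt3a1-shRNA.

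Slc2a1 and Slc16a1 are also genes of glia and vessels, so the markers of those cells are given beside them. Of 10 astrocyte markers 9 were tested, and 1 was called with bicuculline under each hairpin (11.1%, against 21.9% and 25.8% of all genes). It was Sox9, higher by 1.09 ± 0.18 in Control-shRNA and by 1.08 ± 0.17 in Dnmt3a1-shRNA. The summed astrocyte markers ranged from 243 to 401 TPM in baseline and from 215 to 389 TPM with bicuculline in Control-shRNA, and from 243 to 485 and from 285 to 466 TPM in Dnmt3a1-shRNA. The ranges of the baseline and bicuculline libraries overlapped in TPM. In the edgeR fit 8 of the 9 had a positive estimate under each hairpin, with a median log2 fold change of 0.31 in both, beside 0.01 and -0.01 for all genes. The 9 neuronal markers shifted the same way, with 7 positive under each hairpin and medians of 0.23 and 0.22. Of these 9, 5 passed the adjusted p higher under each hairpin, and 1 and 2 passed lower. Among the astrocyte markers 1 passed higher and 0 lower under each hairpin.

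For the oligodendrocyte lineage the sums were 100 to 195 TPM and 89.4 to 197 TPM in Control-shRNA. There 1 of 8 tested markers was called, Mog, lower (12.5%, against 21.9% of all genes). For fibroblasts and vessels the sums were 47.5 to 82.4 and 42.2 to 90.4 TPM, with 3 of 11 called in Control-shRNA (27.3%, against 21.9%). The endothelial receptor Kdr was lower by 1.08, and Pdgfrb and Col1a2 were higher by 0.56 and 0.55. In Dnmt3a1-shRNA 1 of the 11 was called (9.09%, against 25.8%). Of these 11 markers 8 were positive in Control-shRNA (median 0.30) and 7 in Dnmt3a1-shRNA (median 0.23). Of 6 tested proliferation markers 2 were called in Control-shRNA (33.3%, against 21.9% of all genes). There Pcna was higher by 0.76 and Mcm2 lower by 0.99, and Mki67 was at 0.155 TPM in baseline and 0.112 TPM with bicuculline. The part of these cells in the rise of Slc2a1 and Slc16a1 was not tested.

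Knockdown of Dnmt3a1 was compared with Control-shRNA in each condition. With edgeR 0 of the 31 genes were called in baseline, where 5.83% of all genes tested were, and 0 with bicuculline, where 5.89% were. On the adjusted p alone 2 fell in each condition (6.45%, against 16.3% and 17.7% of all genes). With the replicate number as a block 7 passed in baseline, 3 higher and 4 lower, and 6 with bicuculline, 3 in each direction. Among all 17222 genes the block raised the number called from 1004 to 1284 in baseline and from 1015 to 1338 with bicuculline. At an unadjusted p under 0.05 edgeR gave 6 in baseline (19.4%, against 28.8%) and 5 with bicuculline (16.1%, against 31.2%), and limma with voom and TMM also called 0 in both. DESeq2 called 1 in baseline, Slc16a3, and 0 with bicuculline. In baseline 27 of the 31 genes and with bicuculline 28 of the 31 had an estimate within 0.25 on the log2 scale, with a median SE of 0.08 in each. Medians over the 31 genes were -0.01 and -0.02, beside 0.01 and -0.01 for all genes. Cell markers are given for knockdown too. Of the 9 neuronal markers 7 had positive estimates in each condition, with medians of 0.05 and 0.06. Of 9 tested astrocyte markers 8 had positive estimates in each condition, with medians of 0.41 and 0.42. For fibroblasts and vessels it was 10 of 11 in baseline (median 0.33) and 9 with bicuculline (0.21). Of 6 microglia markers 5 were negative in baseline (median -0.29) and 3 with bicuculline (0.03). The part of these cells in the knockdown differences was not tested.

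Pgk1 was lower with Dnmt3a1-shRNA in both conditions. It went from 342 ± 35.8 to 254 ± 19.4 CPM in baseline, a fall by 0.43 ± 0.10 (edgeR adjusted p = 0.0050) without overlap of the groups, and from 455 ± 62.2 to 367 ± 24.6 CPM with bicuculline, by 0.31 ± 0.10 (edgeR adjusted p = 0.031). The value with bicuculline missed the threshold of the adjusted p without Control-shRNA bicuculline replicate 3 (adjusted p = 0.11) or 4 (0.10) or without Dnmt3a1-shRNA bicuculline replicate 1 (0.060), 2 (0.085) or 3 (0.057). With library sizes only, the baseline fall was 0.51 and was called.

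Slc16a1 fell by 0.25 ± 0.07 in baseline (edgeR adjusted p = 0.017), but not without Control-shRNA baseline replicate 4 or Dnmt3a1-shRNA baseline replicate 1 (adjusted p = 0.066 and 0.061), and was at -0.04 ± 0.07 with bicuculline (edgeR adjusted p = 0.75). Slc2a1 did not pass in baseline (-0.01 ± 0.12; edgeR adjusted p = 0.95) and fell by 0.47 ± 0.11 with bicuculline (edgeR adjusted p = 0.0081), from 144 ± 16.9 to 104 ± 10.2 CPM without overlap. It was just short of the fold threshold and was called with library sizes only, at -0.54, and in 4 of the 16 fits that left out 1 library, those without Control-shRNA bicuculline replicate 1 (-0.52) or 4 (-0.51) and without Dnmt3a1-shRNA bicuculline replicate 2 (-0.51) or 3 (-0.52).

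The other glucose transporter, Slc2a3, gave 0.00 ± 0.06 in baseline and 0.11 ± 0.06 with bicuculline. Among the scarce genes Slc16a3 was in baseline at 2.20 ± 0.46 CPM in the controls and at 0.982 ± 0.385 CPM after knockdown (-1.16 ± 0.46; edgeR adjusted p = 0.10), without overlap, and Pdk4 at 0.703 ± 0.323 and 1.21 ± 0.359 CPM (0.78 ± 0.42; edgeR adjusted p = 0.23). With the replicate number as a block both were called in baseline, Slc16a3 at -1.23 ± 0.33 (edgeR adjusted p = 0.0094) and Pdk4 at 0.82 ± 0.21 (edgeR adjusted p = 0.0074). Hk2 gave -0.57 ± 0.28 in baseline (edgeR adjusted p = 0.19) and 0.12 ± 0.26 with bicuculline.

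**Figure D5:**
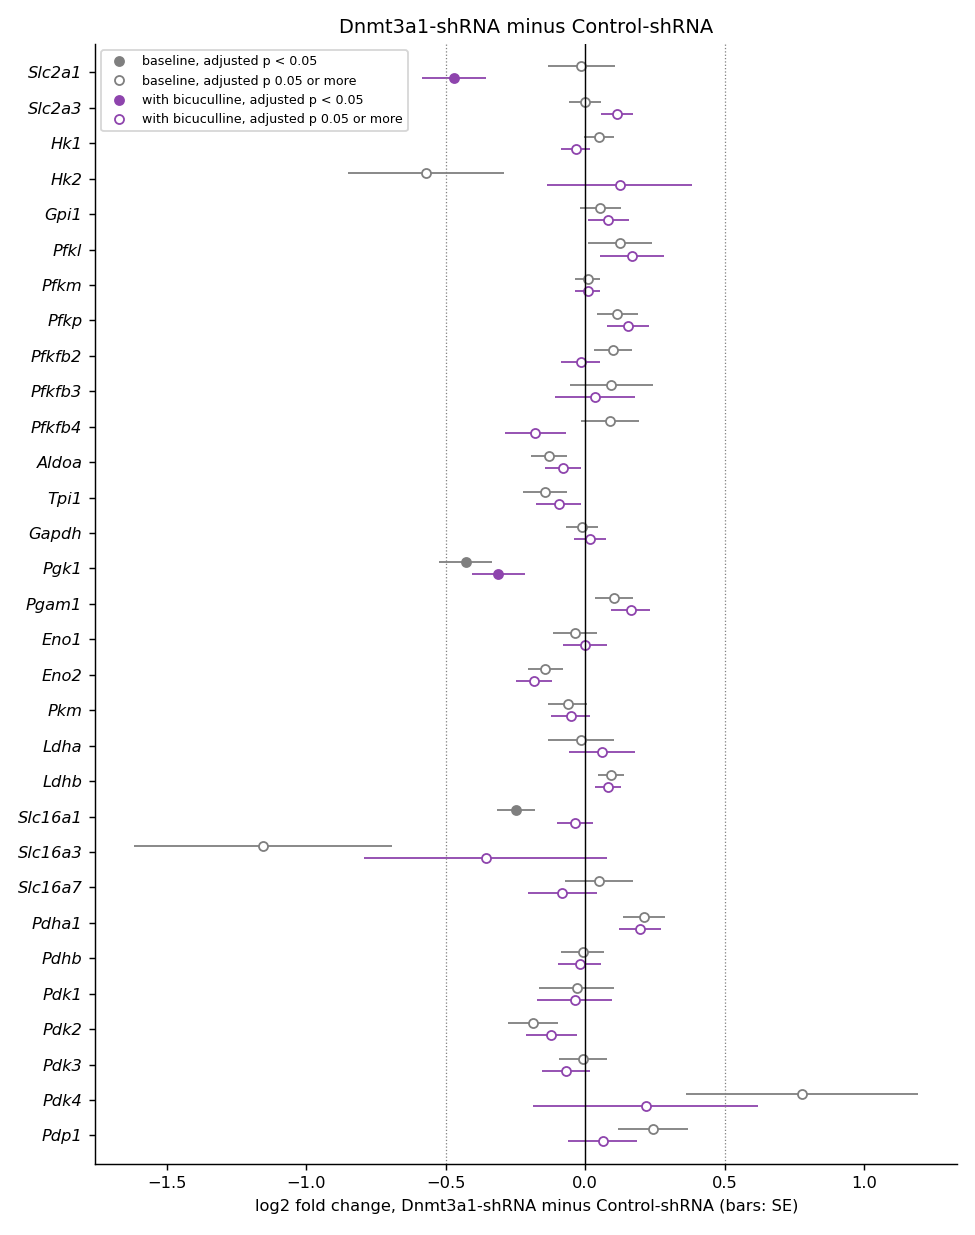
Log2 fold change of each of the 31 genes between Dnmt3a1-shRNA and Control-shRNA in baseline (grey) and with bicuculline (purple), with the standard error as bars, filled points for an edgeR adjusted p under 0.05 and dotted lines at -0.5 and 0.5. The filled points are Pgk1 and Slc16a1 in baseline and Slc2a1 and Pgk1 with bicuculline, all between -0.5 and 0, and the widest bars belong to Slc16a3 and Pdk4.

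Whether the response to bicuculline differed between the hairpins was tested as an interaction. At an adjusted p under 0.05, 0 of the 31 genes and 0.00% of all genes tested passed in edgeR, and 0 of the 31 in voom with limma and in DESeq2. At an unadjusted p under 0.05 edgeR gave 2 of the 31 (6.45%, against 4.95% of all genes). They were Slc2a1, whose estimate in Dnmt3a1-shRNA differed by -0.46 ± 0.17 on the log2 scale (edgeR adjusted p = 0.88), and Slc16a1, by 0.21 ± 0.09 (edgeR adjusted p = 0.98). Differences ran from -0.56 for Pdk4 to 0.80 for Slc16a3, and 26 of the 31 were within 0.25, with a median SE of 0.11.

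The other genes of the pathway, 42 further isozymes, transporters and shuttle or entry genes of which 36 were tested, were chosen to cover the rest of the pathway. With bicuculline in Control-shRNA 2 were called higher and 6 lower (22.2% in all, against 21.9% of all genes), and in Dnmt3a1-shRNA 1 and 5 (16.7%, against 25.8%), with median log2 fold changes of -0.01 and -0.02. Adpgk, which phosphorylates glucose with ADP, was higher by 1.03 ± 0.18 and 0.71 ± 0.18. Slc16a13, of the monocarboxylate transporter family, was lower by 1.12 ± 0.16 and 1.44 ± 0.17, and the phosphatase Pdp2 by 0.96 ± 0.16 in each.

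After knockdown 4 of these were called lower in baseline (11.1%, against 5.83% of all genes) and 6 were called lower and 1 higher with bicuculline (19.4%, against 5.89%). Gpd2, the mitochondrial glycerol 3-phosphate dehydrogenase that carries cytosolic NADH into the respiratory chain, went from 133 to 38.9 CPM in baseline and from 124 to 33.0 CPM with bicuculline, a fall by 1.77 ± 0.06 and by 1.91 ± 0.06 (edgeR adjusted p = 2.6e-12 and 8.5e-13). Pdpr, a regulatory subunit of the pyruvate dehydrogenase phosphatase, fell by 0.76 ± 0.14 and 0.78 ± 0.14. Slc16a11 fell by 0.71 ± 0.15 and 1.09 ± 0.16.

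Of the 8 genes of the pentose phosphate pathway, which branches off at glucose 6-phosphate, H6pd was the 1 called with bicuculline (12.5%, against 21.9% and 25.8%), lower by 0.69 ± 0.12 and 0.71 ± 0.12. Of 23 tested genes of glycogen metabolism 3 were called in Control-shRNA (13.0%, against 21.9% of all genes) and 7 in Dnmt3a1-shRNA (30.4%, against 25.8%) with bicuculline. Ppp1r3c, which targets a phosphatase to glycogen, was higher by 0.88 ± 0.21 and 0.99 ± 0.20, Ppp1r3d, of the same family, was lower by 0.61 ± 0.13 and 1.05 ± 0.13, and Nhlrc1 (malin) was lower by 0.94 ± 0.16 and 0.84 ± 0.16. After knockdown Pgm2l1, which makes glucose 1,6-bisphosphate, fell by 0.74 ± 0.15 in baseline and by 0.76 ± 0.15 with bicuculline.

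Among 23 genes of the HIF-1 system and its targets outside glycolysis, 7 were called with bicuculline in Control-shRNA (4 higher and 3 lower, 30.4% against 21.9% of all genes) and 8 in Dnmt3a1-shRNA (5 higher and 3 lower, 34.8% against 25.8%), and the list medians were 0.04 and 0.13. Adm (adrenomedullin) was higher by 1.85 ± 0.27 and 1.86 ± 0.28, Vegfa by 1.22 ± 0.13 and 1.37 ± 0.13, Mxi1 by 1.07 ± 0.09 and 1.09 ± 0.09, and Egln3 by 0.71 ± 0.17 and 0.77 ± 0.17. Ndrg1, another known target, went the other way, lower by 0.70 ± 0.15 and 1.30 ± 0.16. With bicuculline Ndrg1 was also lower in Dnmt3a1-shRNA than in Control-shRNA, by 0.98 ± 0.16 (edgeR adjusted p = 0.00034).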

How the data were processed

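The 31 genes and the further lists were chosen with earlier results of these data known. The authors trimmed the paired reads (Trim Galore 0.6.4), quantified them with kallisto against GRCm38.p6, and deposited estimated counts, which are per gene and not scaled for depth. They also deposited TPM, scaled for transcript length and library total. The rounded counts went into edgeR 4.0.16 under R 4.3.3 (TMM, filterByExpr, 1 quasi-likelihood fit of the 4 groups, Benjamini-Hochberg adjustment over 17222 genes, called at an adjusted p under 0.05 with a log2 fold change beyond 0.5 in either direction, for the interaction at the adjusted p alone). The study itself used voom with limma, which was an alternative here (limma 3.58.1), as was DESeq2 1.42.0. TPM, used between genes, is not TMM-scaled, so changes in TPM and CPM can differ.

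The value of every library is given for the members called with bicuculline at an absolute log2 fold change over 1, or called after knockdown, or with an interaction. From each further list at most 4 called genes per comparison with the largest change were named, and 1 gene that this rule names is not reported here. The markers Sox9, Mog, Kdr, Pdgfrb, Col1a2, Pcna, Mcm2 and Mki67 and the genes at 0 were named after their values were seen. Aldoa has 2 identifiers, and the second, with 21 to 64 counts, was left out. In all, 58 annotated genes share at least 50% of their 31-mers with a member, 43 of them with Gapdh. Their counts were at most 1.11% of those of the member, and adding them changed no member count of calls.

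The depth of 28912697 to 29586355 pairs differed little between libraries. The study calls the 4 libraries of a group independent preparations. Libraries of a group differed by more than sampling noise, with a chi-square of 7.92 to 44.7 per degree of freedom. The labels number the replicates 1 to 4 in each group and do not say what a number shares. Deviations from the group means of same-numbered libraries correlated across genes at 0.142 to 0.221 for bicuculline in Control-shRNA and at 0.204 to 0.355 for knockdown in baseline. In the other 2 comparisons the correlations were 0.0631 to 0.337 and 0.0667 to 0.388. The main fit paired no libraries in any comparison, and the replicate number as a block was run as an alternative. On counts simulated for bicuculline in Control-shRNA (16952 genes tested), 72.2% of genes changed by 0.8 and 92.6% of those changed by 1.5 on the log2 scale were called. There 97 and 95 tested genes were changed by these amounts and the rest were not. In the data 41.4% of genes passed the adjusted p, so the simulated shares need not hold for this comparison. Promoter windows are RefSeq's, on GRCm38.p6. Gene names were taken from GENCODE M21.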

Additional observations from a re-analysis of the deposited data

Results flagged for a closer look

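Among 124 groups of 4 libraries (31 genes in 4 groups), 3 held a library whose distance from the other libraries was unusually large by Dixon's test, where chance alone gives about 1 group in 20. Pfkl, the liver-type phosphofructokinase, was at 137.6 CPM in Control-shRNA baseline replicate 1 and at 104.8 to 106.6 CPM in the other 3 libraries. Pfkfb2 was at 23.85 CPM in Dnmt3a1-shRNA baseline replicate 3 and at 26.65 to 27.2 CPM in the others. Pdk2 was at 26.24 CPM in Control-shRNA bicuculline replicate 1 and at 30.34 to 31.08 CPM in the others.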

How the results depend on the processing

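The number of the 31 genes called with bicuculline depended most on the fold threshold. Without it 21 genes passed in Control-shRNA and 20 in Dnmt3a1-shRNA, and at a threshold of 1 it was 3 and 4. The other planned settings gave 7 to 9 and 8 to 10, and leaving out 1 library 6 to 8 and 8 to 10. After knockdown, 2 passed in each condition without the fold threshold. In baseline 1 gene was called with voom or edgeR on library sizes only, and with limma on log2(TPM + 1) or log2(TPM + 0.1) (Pgk1), and 1 with DESeq2, without the filter, or in a fit of the 2 groups compared (Slc16a3). With bicuculline 1 was called with voom or edgeR on library sizes only and with limma on log2(TPM + 1) or log2(TPM + 0.1) (Slc2a1). Leaving out 1 library gave 0 to 1 in either condition, and for Slc16a3 in baseline the call came without Control-shRNA bicuculline replicate 1 (adjusted p = 0.047) or 3 (0.045). The interaction gave 0 under every setting.

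With the replicate number as a block 2 genes were called after knockdown in baseline (Slc16a3 and Pdk4), 9 with bicuculline in Control-shRNA (Pdk4 added), 10 in Dnmt3a1-shRNA (Slc16a3 added) and 0 after knockdown with bicuculline. Among all 17222 genes the block called 1284, 3986, 4612 and 1338 in the same order, in place of 1004, 3765, 4436 and 1015. The block changed no other call of the 31, and on the adjusted p alone it gave 27 in place of 21 and of 20 with bicuculline, and 7 and 6 in place of 2 and 2 after knockdown. Same-numbered libraries correlated best with their own number in 10 of 16 cases.

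Pfkm reversed with bicuculline in Control-shRNA (-0.019 with edgeR or voom on library sizes only, -0.068 with either TPM setting) and in Dnmt3a1-shRNA (-0.0086 and -0.056), and the cause was not tested beyond the shift of all genes that these scalings make. For genes called in at least 1 of the 4 comparisons, a threshold of 1 left 5 of 15 other pathway genes, 0 of 1 pentose phosphate genes, 1 of 8 glycogen genes and 4 of 9 HIF-1 genes, and without a fold threshold the last 3 lists had 2, 13 and 15. Slc16a3 and Pdk4 were scarce, with SEs of 0.40 to 0.47, and an estimate as large as -1.16 for Slc16a3 did not pass.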
